A study of Mus musculus with 39 samples.

Results

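Transcripts of the pancreatic islet were present at widely different levels in livers of Ins1-/- mice, and the livers were sorted by them into 2 classes. For each liver the counts of Iapp, Gcg, Sst and Ppy were summed and divided by the total count of the library. Livers at 5 or more counts per 1000000 (CPM) formed the class with islet transcripts, and livers below 5 CPM the class without. This gave 6 livers with and 13 livers without, of 19 livers and 39 libraries in all. The classes were chosen by the measured levels of Iapp, Gcg, Sst and Ppy, so the levels of these 4 genes are described and not tested.

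The study sequenced RNA of liver and of calf muscle (triceps surae) in mice that were female, 25 weeks old, of mixed C57BL/6 and 129 background and fasted for 4 h. Every mouse lacked Ins1, and the mice were Ins2+/- or littermates with both copies, Ins2+/+. They ate diet B, with 58% of its calories from fat, or diet A, with 25%. Libraries are named by genotype, diet and replicate number, so liver Ins2+/- B 1 is the first replicate of Ins2+/- mice on diet B. The mice of all groups share the deletion of Ins1, so neither class holds mice with both insulin genes.

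Islets are clusters of endocrine cells within the pancreas. Beta cells make insulin and amylin (Iapp), alpha cells glucagon (Gcg), delta cells somatostatin (Sst) and PP cells pancreatic polypeptide (Ppy). Acinar cells, which make up most of the pancreas, secrete digestive enzymes. Hepatocytes are not known as a source of these hormones, and respond to insulin and glucagon that reach them through the portal vein.

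The pair of mouse insulin genes can be told apart by sequence, which matters here since all mice lack one of them. The first 150 bases of each coding sequence are shown, from the GENCODE release M21 transcripts of build GRCm38, with the 14 positions at which they differ in capitals. Ins2 lies on the minus strand of chromosome 7 (142678656 to 142743381) and Ins1 on the plus strand of chromosome 19 (52264297 to 52265476).
Ins2: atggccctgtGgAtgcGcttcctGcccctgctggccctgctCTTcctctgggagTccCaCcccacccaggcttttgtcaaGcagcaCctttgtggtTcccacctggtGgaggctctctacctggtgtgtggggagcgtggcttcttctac
Ins1: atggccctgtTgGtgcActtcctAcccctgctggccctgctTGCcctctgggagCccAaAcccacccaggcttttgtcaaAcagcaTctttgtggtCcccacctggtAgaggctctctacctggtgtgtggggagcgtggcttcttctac
The 2 stretches are 90.7% identical. Over the annotated transcripts, 96.7% of the distinct 31-base windows of Ins2 are not found in Ins1.

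The 6 livers with islet transcripts came from every combination of genotype and diet. They were 4 of 10 Ins2+/- livers and 2 of 9 Ins2+/+ livers, and 3 of 9 livers on diet B and 3 of 10 on diet A. The replicate numbers were not evenly spread, for the class held 3 of 3 livers numbered 1, 2 of 4 numbered 2, 1 of 4 numbered 3 and none of the 8 numbered 4 or 5. Total counts were 4713417 to 48823009 in the livers with islet transcripts and 1289185 to 54249731 in those without. Total count, the number of genes detected in counts thinned to 1289185 per library, the share of counts on mitochondrially encoded genes and the share in the 20 most abundant genes did not differ detectably between the classes (two-sided exact permutation tests over the livers, adjusted p = 0.637 for each of the 4). Livers Ins2+/- B 3, with islet transcripts, and Ins2+/- B 2, without, were nearly alike outside the pancreas lists. In counts thinned to 1289185 per library, chi-square per gene between them was 1.16 over 8431 genes, where sampling noise alone gives about 1, and it was 2.61 to 32.5 in the other 170 pairs of livers. The labels give them as separate replicates and their pancreas genes differed, so they were kept as 2 libraries. Whether they come from 1 animal was not tested, and counts without both are given where they enter. Albumin (Alb), the most abundant hepatocyte product, stood at 77264 to 116778 normalised CPM in livers with islet transcripts and at 78509 to 118128 in those without, so it was abundant in both classes.

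The 4 genes of the rule separated the livers by a wide margin. Their sum was 1692 CPM in liver Ins2+/- B 1, 128 in Ins2+/- A 2, 56.4 in Ins2+/- A 1, 43.9 in Ins2+/+ B 2, 13.03 in Ins2+/- B 3 and 12.2 in Ins2+/+ A 1. Among the 13 livers without islet transcripts it was 1.24 CPM in Ins2+/+ A 5, the highest, 0.650 in Ins2+/- B 4, the next, and 0 in 4 livers. No liver lay between 1.24 and 12.2 CPM, so thresholds of 2 and 5 CPM gave the same classes. Iapp had 10362 counts over the 6 livers against 15 over the 13, and Gcg had 7544 against 10. Sst had 725 counts and Ppy 538 in the livers with islet transcripts, and neither had a count in any of the 13 without. Pooled over the livers, in CPM, Sst was at least 336-fold and Ppy at least 249-fold higher with islet transcripts, taking 3 counts over the 13 livers as the floor. These bounds rest largely on liver Ins2+/- B 1, without which they were at least 39.4-fold and 63.9-fold. Intervals and floors cover counting error only.

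Ins2, which the rule did not use, followed the same order. It stood at 2074, 159, 120, 76.4, 26.2 and 18.8 CPM in livers Ins2+/- B 1, Ins2+/- A 2, Ins2+/- A 1, Ins2+/+ B 2, Ins2+/- B 3 and Ins2+/+ A 1. In the livers without islet transcripts the lowest value was 0.199, the median 0.358 and the highest 1.66 CPM. The classes did not overlap. The log2 ratio of livers with over livers without was 9.91 ± 0.90 (SE; edgeR's quasi-likelihood test with genotype and diet as terms, Benjamini-Hochberg adjusted p = 3.3e-06), and without liver Ins2+/- B 1 it was 6.94. Ins2 passed the filter on low counts only through the livers where it is high. Beta cells also make Iapp, by which the livers were sorted, so this p value is no independent support for the classes. Ins1 had no count in any of the 19 livers, beside 24387 counts of Ins2 in the 6 with islet transcripts, as the genotype given in the labels requires. A count of 0 there allows up to 0.0382 CPM.

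**Figure D1:**
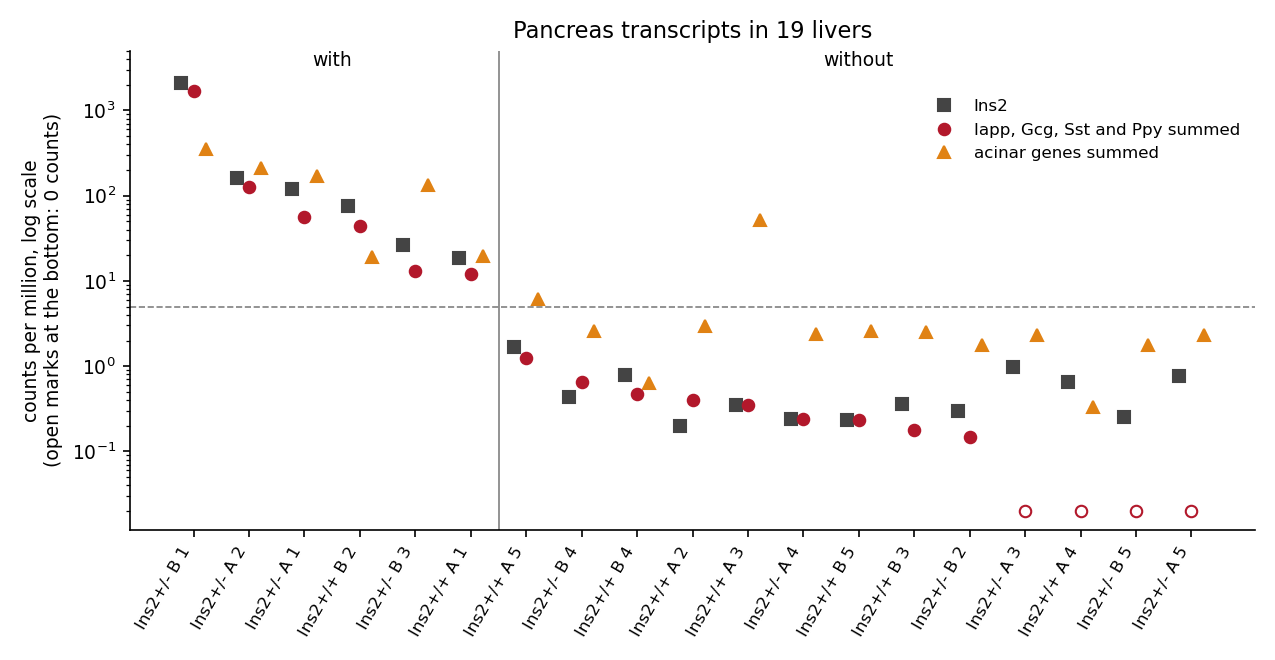
CPM on a log scale of Ins2 (squares), of Iapp, Gcg, Sst and Ppy summed (circles) and of 41 acinar genes summed (triangles) in each of the 19 livers. The 6 livers with islet transcripts stand left of the vertical line and the 13 without right of it, each ordered by the sum of the 4 genes, and open circles at the bottom mark 0 counts. The dashed line is the 5 CPM threshold, which no liver approaches, since the nearest stood at 12.2 and 1.24 CPM.

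The mix of hormones was similar in outline and differed in detail between the 6 livers. Ins2 made up a median of 62.1% of the counts of the 5 hormones (range 55.1% to 68.0%), Iapp 21.3% (12.3% to 26.3%), Gcg 15.3% (4.17% to 18.9%), Ppy 1.85% (1.08% to 3.35%) and Sst 1.81% (0.887% to 2.67%). Liver Ins2+/- B 3 had the lowest share of glucagon, with 80 of 1917 hormone counts (4.17%, exact Clopper-Pearson 95% interval 3.32% to 5.17%). The 5 other livers had 13.6% to 18.9%. That difference exceeds counting error, since the lowest lower bound among the 5 was 11.1%, in liver Ins2+/+ A 1.

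Across all genes, 39 genes outside the rule were called at an adjusted p below 0.05 among 11773 tested, 37 of them higher in livers with islet transcripts (0.314% of the genes tested) and 2 lower (0.017%). Of the 39 genes, 23 were pancreas genes: Ins2, 5 genes of the endocrine granule, 13 acinar genes of the list and 4 further pancreatic amylase genes. Of these amylase genes, Amy2a2, Amy2a3 and Amy2a4 had identical counts in every liver, so their calls are a single measurement. The 16 others of the 39 are described below. The count rested on single libraries and on the test: it was 11, 12, 15 and 25 without livers Ins2+/- B 1, Ins2+/- A 1, Ins2+/- A 2 and Ins2+/+ A 1, 84 and 141 without livers Ins2+/- B 2 and Ins2+/- B 3, 147 without both, 23 with limma-voom and 176 with DESeq2. Part of this came from the filter on low counts, since 12 of the 23 pancreas genes were tested without each of livers Ins2+/- B 1, Ins2+/- A 1 and Ins2+/- A 2, and 10, 11 and 11 of these were called. Among the Ins2+/- livers alone the count was 0, but none of the 23 passed the filter there. The tests concern genes that the rule did not use, measured in the libraries it sorted. The labels do not say whether each library is a separate mouse, so p values measure only the spread between these libraries.

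Genes of the secretory granule, in which endocrine cells store hormones, were high in the same livers. Chga, which encodes chromogranin A of the granule matrix, had 9415, 311, 265, 76, 17 and 11 counts in livers Ins2+/- B 1, Ins2+/- B 3, Ins2+/- A 2, Ins2+/- A 1, Ins2+/+ B 2 and Ins2+/+ A 1, and 21 counts in all over the 13 livers without islet transcripts. The liver with most islet RNA dominated this sum. In normalised CPM the classes did not overlap, and the log2 ratio was 9.91 ± 1.30 (SE, edgeR quasi-likelihood adjusted p = 2.3e-04), against 5.40 without liver Ins2+/- B 1. Scg2 (secretogranin II) had 3403 counts over the 6 livers and 4 over the 13, with a log2 ratio of 10.64 ± 1.27 (adjusted p = 9.1e-05, edgeR). Of its counts 3056 were in liver Ins2+/- B 1, without which the log2 ratio was 6.63. Chgb (chromogranin B) had 2102 counts and 3, and Pcsk2, the convertase that helps to cut proinsulin and proglucagon, had 2391 and 41 (log2 ratio 6.57 ± 1.09, edgeR adjusted p = 0.0036). Pooled in CPM, Pcsk2 was 81.0-fold higher, and 7.17-fold higher without liver Ins2+/- B 1. Of the 32 genes of the granule and secretion list in the annotation, 30 had a higher mean CPM in the livers with islet transcripts. Such a mean can rest on liver Ins2+/- B 1 alone, which held 133 of the 137 counts of Vgf in the 6 livers. The share of all genes by this measure is not given here, so nothing is read from the number. The filter on low counts left 12, and 5 were called. Genes such as Scg2 and Chgb, at 0 in most livers without islet transcripts, passed it only through the livers where they are high, so the calls are no independent count.

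Transcription factors of islet cells were near the limit of detection. Pdx1, the master regulator of pancreas and beta cells, had 118 counts in liver Ins2+/- B 1, 12 counts over the 5 other livers with islet transcripts, and none in the 13 without. Mafa, a beta cell activator of insulin transcription, had 86 counts in liver Ins2+/- B 1, 3 in each of Ins2+/- A 2 and Ins2+/- B 3, and 0 in the other livers. Neurod1 had 52 counts in liver Ins2+/- B 1, 63 over the 6 livers and 0 over the 13. Of the 17 factors in the list, 16 had a count in at least 1 of the 6 livers and 8 in at least 1 of the 13. Of the 17, 2 passed the filter on low counts and neither was called. Hhex, which liver cells also express, was one of them, with a log2 ratio of -0.41 ± 0.17 (edgeR adjusted p = 0.324).

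Acinar transcripts accompanied the islet transcripts in all 6 livers, in varying proportion. The sum of 41 acinar genes, the acinar list without Cela1 and with the remaining pancreatic amylase genes, was 355 CPM in liver Ins2+/- B 1, 210 in Ins2+/- A 2, 169 in Ins2+/- A 1, 133 in Ins2+/- B 3, 19.4 in Ins2+/+ A 1 and 19.3 in Ins2+/+ B 2. Cela1 was set aside after its values were seen, because livers without islet transcripts held a median of 8.70 CPM of it. In the 13 livers without islet transcripts the sum had a lowest value of 0.328, a median of 2.39 and a highest of 52.3 CPM. The classes overlapped through a single liver, Ins2+/+ A 3, which had 148 acinar counts, among them 12 of Cel, 8 of Pnlip and 7 of Prss2, beside 1 count of the 4 genes of the rule and 1 of Ins2. Without it the highest of the class was 6.21 CPM.

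Per 100 counts of the 5 hormones, acinar counts ranged from 9.43 in liver Ins2+/- B 1 to 339 in Ins2+/- B 3, with 16.0 in Ins2+/+ B 2, 62.7 in Ins2+/+ A 1, 73.3 in Ins2+/- A 2 and 95.8 in Ins2+/- A 1. Acinar and islet RNA therefore did not keep 1 ratio over the livers. Of the 38 listed acinar genes in the annotation, 35 had a higher mean CPM in the livers with islet transcripts. A mean can rest on 1 or 2 livers, and the share of all genes by this measure is not given here. The filter left 14, most of them only through the livers where they are high, and 13 were called, so this count too is not independent of the filter. Ctrb1, which encodes chymotrypsinogen, had 867, 850, 127, 83, 17 and 13 counts in livers Ins2+/- B 3, Ins2+/- B 1, Ins2+/- A 2, Ins2+/- A 1, Ins2+/+ B 2 and Ins2+/+ A 1, and 11 counts over the 13 livers without. In normalised CPM its classes did not overlap (log2 ratio 7.70 ± 0.74, edgeR adjusted p = 5.3e-06). Reg1, a secreted lectin of acinar cells, had a log2 ratio of 5.75 ± 0.52 (edgeR adjusted p = 3.3e-06) with 277 counts against 7. Pnlip, pancreatic lipase, had 546 counts against 14, of which 8 were in liver Ins2+/+ A 3 (5.41 ± 0.73, adjusted p = 2.9e-04, edgeR). Amylase and trypsinogen genes have near-identical copies among which the reads were divided by likelihood, so values of Amy2a1 and Try5 are uncertain. The listed acinar gene that was tested and not called was Cela1, at 0.54 ± 0.22 (edgeR adjusted p = 0.307).

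Each library carries a serial number of the submitters, 1 to 20 for livers and 21 to 40 for muscles, and the classes followed it. The livers with islet transcripts were 6 of the 7 livers numbered 1 to 8, and none of the 12 numbered 9 to 20. The exception was liver Ins2+/- B 2, with number 6, at 0.147 CPM. Among the muscles, 9 met the same rule and 11 did not, and these 9 were 8 of the 8 numbered 25 to 32, 1 of the 8 numbered 33 to 40, and none of the 4 numbered 21 to 24. The 1 numbered 33 to 40, muscle Ins2+/- A 3, met the rule on 8 counts, at 7.54 CPM in a library of 1060460 counts. Muscle Ins2+/+ A 4, the highest of those without, had 9 counts and stood at 2.42 CPM. What the serial number stands for is not given in the sources used here. The classes and the ranges of serial numbers differ by that 1 liver only and otherwise cannot be told apart.

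The pancreas transcripts of the livers were set against those of the muscles. For this, 53 pancreas genes were used that had 50 or more counts over the 6 livers. Each was at 5 CPM or less in every liver and muscle without islet transcripts. The genes were thus chosen in the same libraries, and Ins2 was not among them. The profile of each of the 6 livers was set against each muscle that met the rule. There were 9 such muscles, 8 of them numbered 25 to 32, and the scale was log2(count + 0.5). The 53 genes include Amy2a2, Amy2a3 and Amy2a4, which had identical counts. In 5 of the 6 livers the muscle most like it was the one numbered 24 later. Pearson's r across genes was 0.992 between liver Ins2+/- B 1 and muscle Ins2+/- A 2, whereas the next muscle reached 0.813. It was 0.976 between liver Ins2+/- B 3 and muscle Ins2+/- B 4, where the next muscle had 0.877. The lead was smaller in the other 3, with 0.932 against 0.846 for liver Ins2+/- A 2, 0.927 against 0.906 for Ins2+/- A 1 and 0.759 against 0.720 for Ins2+/+ B 2. Genes of one organ share much of their profile, so these values are a description, and genes are not independent replicates. For liver Ins2+/+ A 1 the muscle numbered 24 later came second, with r = 0.758 against 0.806 for muscle Ins2+/+ B 3.

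The ratio of counts of a liver to those of the muscle numbered 24 later was much the same for acinar genes and hormones. Liver Ins2+/- B 1 had 21268 Ins2, 9271 Iapp, 7016 Gcg, 651 Sst and 418 Ppy counts, which were 42.0%, 45.5%, 45.7%, 46.3% and 47.3% of those of its muscle, and its acinar sum was 46.6%. Liver Ins2+/- B 3 had 8.28% of the hormone counts and 8.60% of the acinar counts of its muscle. For liver Ins2+/- A 2 both were 8.6%, for Ins2+/- A 1 they were 11.9% and 11.5%, for Ins2+/+ A 1 they were 7.92% and 7.42%, and for Ins2+/+ B 2 they were 8.26% and 7.17%. Single hormones with few counts varied more, and in the pair of liver Ins2+/- B 3 the ratio was 5.76% for Sst and 8.58% for Ins2. Acinar counts per 100 hormone counts were 339 in liver Ins2+/- B 3 and 327 in its muscle, 95.8 and 99.3 in the pair of liver Ins2+/- A 1, 9.43 and 8.82 in that of Ins2+/- B 1, and 16.0 and 18.5 in that of Ins2+/+ B 2. The low glucagon share of liver Ins2+/- B 3 was found in its muscle too, at 4.11%. By the labels, the 2 libraries differed in diet in 5 of the 6 pairs, and in 1 of these in genotype as well. The remaining pair shared genotype and diet and differed in replicate number. What links the libraries of a pair was not tested.

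**Figure D2:**
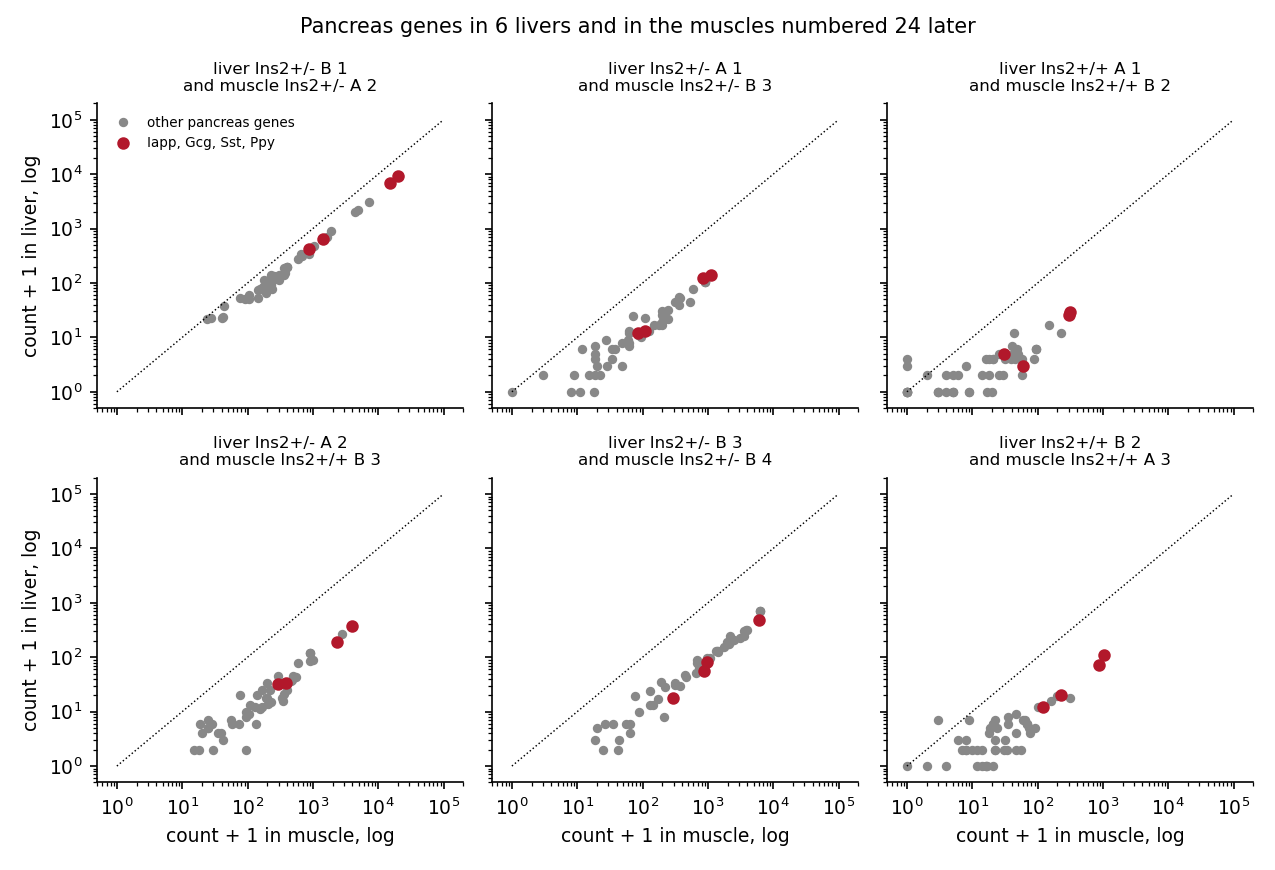
Counts plus 1 of 53 pancreas genes in each liver with islet transcripts (vertical axis, log scale) against the muscle whose serial number is 24 higher (horizontal axis, log scale), 1 panel for each pair. Iapp, Gcg, Sst and Ppy are in red, and the dotted line marks equal counts. In livers Ins2+/- B 1 and Ins2+/- B 3 the genes run parallel to the dotted line below it, with r = 0.992 and 0.976.

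Livers Ins2+/- B 3 and Ins2+/- B 2 were the 2 deepest libraries, with 48823009 and 54249731 counts, and fell on either side of the threshold. Ins2 had 1281 counts in liver Ins2+/- B 3 and 16 in Ins2+/- B 2, Iapp 485 and 8, and Ctrb1 867 and 2. In the liver genes shown here they were close. The carboxylesterase gene Ces1d stood at 941 normalised CPM in Ins2+/- B 3 and 996 in Ins2+/- B 2, and the sulfotransferase gene Sult2a3 at 110 and 111.

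Outside the pancreas lists, 16 genes were called, 14 higher and 2 lower in livers with islet transcripts. They were named after their values were seen. The differences were small beside those of the pancreas genes, between 0.31 and 0.97 in size on the log2 scale. In most of the 16 the classes overlapped, and Uqcrq and Ndufa3 were the exceptions. The share of all tested genes without overlap is not given here, so nothing is read from this. The calls depended on the pancreas genes being part of the adjustment: with p values adjusted over the 11742 genes outside the pancreas lists alone, a setting added after seeing the data, Ces1d kept its call (adjusted p = 0.0493, edgeR) and the other 15 did not (0.0798 to 0.117).

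Ces1d encodes a carboxylesterase of the hepatocyte that hydrolyses stored triglyceride and drug esters. It stood at 1611, 1446, 1439, 988, 941 and 874 normalised CPM in livers Ins2+/+ A 1, Ins2+/- B 1, Ins2+/- A 1, Ins2+/+ B 2, Ins2+/- B 3 and Ins2+/- A 2. In the 13 livers without islet transcripts the lowest value was 587, the median 691 and the highest 996, the last in liver Ins2+/- B 2. Of the 6, 3 lay above every liver without and 3 within its range. The log2 ratio was 0.74 ± 0.12 (SE, edgeR quasi-likelihood adjusted p = 0.00247), a 1.67-fold difference, and Ces1d was called in 33 of the 36 alternative fits. It was not called with the replicate number as a block, with a class threshold of 20 CPM or among Ins2+/- livers only. Sult2a3, which transfers sulfate to steroids and bile acids, stood at 110, 175 and 218 normalised CPM (lowest, median, highest) with islet transcripts and at 27.0, 95.7 and 137 without. Of the 6 livers, 4 lay above all 13. Its log2 ratio was 0.97 ± 0.17 (adjusted p = 0.00743, edgeR). Both genes belong to clusters of similar copies, so their values depend on how the reads were divided. Of these relatives, chosen after their values were seen, Ces1g had a log2 ratio of 0.37 ± 0.10 (adjusted p = 0.147), Ces1f of 0.30 ± 0.09 (0.150) and Sult2a1 of 0.45 ± 0.11 (0.0902), and none was called by edgeR.

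Small subunits of the respiratory chain and ATP synthase made up 6 of the 16. They were Uqcr11 and Uqcrq of complex III, Ndufa3 of complex I, Cox8a of complex IV, and Atp5k and Atp5j2 of ATP synthase, with log2 ratios of 0.41, 0.32, 0.42, 0.31, 0.46 and 0.38. Uqcrq stood at 142, 169 and 176 normalised CPM (lowest, median, highest) in livers with islet transcripts and at 102, 135 and 141 in those without. The gap was narrow, since the lowest of the 6 was liver Ins2+/- B 3 at 142.0 and the highest of the 13 was Ins2+/- B 2 at 141.2. The edgeR adjusted p was 0.0412. The other higher genes were Fam102a (0.64 on the log2 scale), St3gal6, a sialyltransferase gene (0.59), Psmb5, which encodes a catalytic subunit of the proteasome (0.35), Rpl41 of the large ribosomal subunit (0.34), Acaa1a, a peroxisomal thiolase gene (0.34), and Vnn3 of the vanin family (0.34).

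The 2 lower genes were Atxn1 and Ptpn9. Atxn1, which encodes the transcriptional corepressor ataxin 1, stood at 6.90, 10.6 and 12.4 normalised CPM (lowest, median, highest) with islet transcripts and at 12.1, 17.3 and 22.2 without. Of the 6 livers, 5 lay below all 13. The log2 ratio was -0.73 ± 0.15 (edgeR adjusted p = 0.0318). Ptpn9, a tyrosine phosphatase gene, had -0.54 ± 0.11 (adjusted p = 0.0318, edgeR). Baz2a, which encodes a chromatin remodelling subunit, came next in order of p and was not called (-0.31 ± 0.07, edgeR adjusted p = 0.0581).

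**Figure D3:**
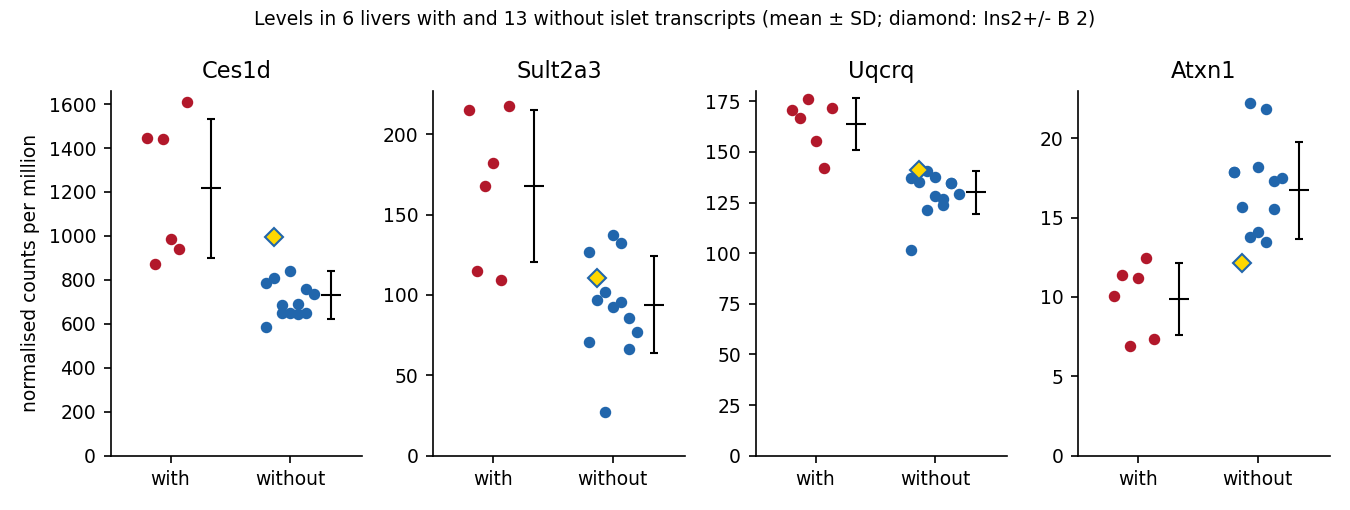
Normalised CPM of Ces1d, Sult2a3, Uqcrq and Atxn1 in the 6 livers with islet transcripts (red, left) and the 13 without (blue, right), with the mean and SD beside each class. The yellow diamond is liver Ins2+/- B 2, the liver without islet transcripts numbered 6. It is the highest of its class for Ces1d (996) and Uqcrq (141) and the lowest for Atxn1 (12.1).

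Liver Ins2+/- B 2 is the liver by which the classes differ from the ranges of serial numbers, and it is also the near match of liver Ins2+/- B 3. In the 16 genes it was the highest of the 13 livers without islet transcripts for 5 (Ces1d, Atp5k, Uqcrq, Vnn3 and Acaa1a) and the lowest for 1 that was lower, Atxn1. With classes by serial number 1 to 8 in place of islet transcripts, added after seeing the data, 63 genes outside the pancreas lists were called, and these included 15 of the 16. The part of the serial number in the result was not tested. Calls outside the lists also moved with single libraries. Without 1 of the livers with islet transcripts the count was 1 (Ins2+/- B 1), 1 (Ins2+/- A 1), 2 (Ins2+/+ A 1), 4 (Ins2+/- A 2), 7 (Ins2+/+ B 2) or 127 (Ins2+/- B 3). Without both Ins2+/- B 2 and Ins2+/- B 3 it was 123, and these included all 16. Without 1 of the 13 it was 62 (Ins2+/- B 2), 10 (Ins2+/- B 4 and Ins2+/- A 4), 9 (Ins2+/+ A 3 and Ins2+/- A 5), 7 (Ins2+/+ B 3 and Ins2+/- B 5) or 5 (Ins2+/- A 3), and within 1.5 times of 16 without any other. Ces1d was called in each of these fits.

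Muscles sorted by the same rule were fitted in the same way. There, 96 genes were called, 93 higher with islet transcripts (0.778% of 11955 tested) and 3 lower (0.0251%). The count was 158, 147 and 146 without muscle Ins2+/- B 3, Ins2+/+ A 2 or Ins2+/- A 3. Muscle Ins2+/- B 2 stood apart with 49.7% of its counts on mitochondrially encoded genes, and the count was 98 without it. Of the 39 liver calls, 37 were tested in muscle and 22 were called in the same direction, which is 56.4% of the liver calls and 22.9% of the muscle calls. Both tissues were sorted by the same hormones, so an overlap in pancreas genes is no independent support. Such genes can also pass the filter only through libraries where they are high. None of the 16 genes outside the pancreas lists was among the 22. Of these, 14 were tested in muscle, 5 had the same sign and 0 were called (edgeR; lowest adjusted p = 0.583). The difference between the tissues did not pass the test for any of the 16 either, with Ces1d closest at 0.83 ± 0.21 on the log2 scale (edgeR adjusted p = 0.0641). Over all 13710 genes of that test, 13 had a higher ratio in liver (0.0948%) and 52 a lower one (0.379%). The single pancreas gene called in liver that differed was Cpe, carboxypeptidase E of the granule, with a log2 ratio of 5.67 ± 0.97 in liver and 0.52 ± 0.18 in muscle (difference 4.82 ± 0.85, adjusted p = 0.00309, edgeR). The level of Cpe in muscles without islet transcripts is not given here, and what lies behind the difference was not tested.

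**Figure D4:**
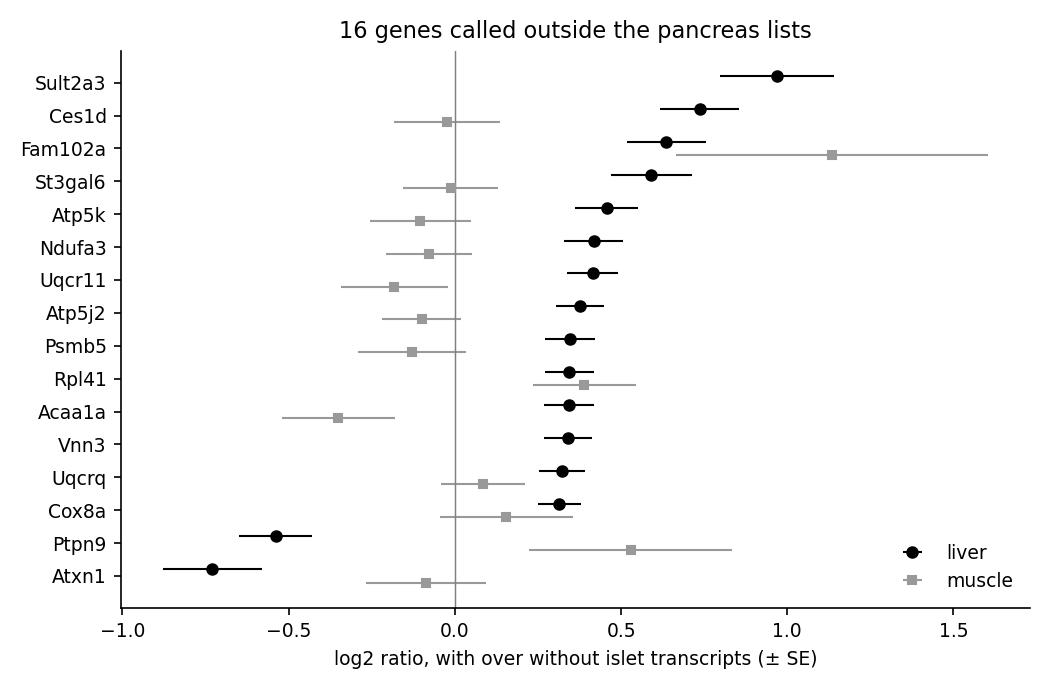
Log2 ratio of libraries with over libraries without islet transcripts, with its SE, for the 16 genes called in liver outside the pancreas lists, in liver (black circles) and in muscle (grey squares). Sult2a3 and Vnn3 were not tested in muscle. Of the 14 genes tested in both, 5 had the same sign.

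Some groups of genes leaned one way. Of 36 ribosomal protein genes of the list, 35 had a positive log2 ratio, with a median of 0.18, beside 47.3% of all tested genes and a median of -0.01 over all genes. None of the 36 was called. Subunits of oxidative phosphorylation encoded in the nucleus, a list added after values were seen, were positive in 78 of 78, with a median of 0.19. The 6 called were those named above, after which the list was made, so nothing is read from their number beside the 0.314% of all genes called higher. The 13 mitochondrially encoded subunits did not share this lean, with 5 positive, 8 negative and a median of -0.03. As a mean log2 of normalised CPM, the nuclear subunits stood at 6.42, 6.56 and 6.67 (lowest, median, highest) in livers with islet transcripts and at 6.21, 6.37 and 6.46 in those without. The classes overlapped, since the highest of the 13 was again liver Ins2+/- B 2, and the lowest of the 6 was liver Ins2+/- B 3.

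Markers of the other cells of the liver were mostly negative. Of 14 Kupffer cell markers 13 had a negative log2 ratio (median -0.14), of 13 endothelial markers 10 (median -0.12) and of 14 stellate cell and fibroblast markers 11 (median -0.11), and none was called. In whole tissue, fewer cells of a type and less RNA per cell cannot be told apart. The 18 hepatocyte markers had a median of -0.04 with 0 called. Markers of skeletal muscle were low in both classes, with sums of 7.73 to 42.5 normalised CPM with islet transcripts and 8.08 to 163 without. The part of these cells in the gene differences was not tested.

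The log2 ratio also ran with transcript length. Outside the pancreas lists its median was 0.10 in the 476 genes of up to 600 bases and 0.04 in the next class, up to 1000. It was -0.05 in genes above 3000 and up to 5000 bases, and -0.08 in the 1117 above 5000. The 14 higher genes of the 16 were all shorter than the median of 2137 bases over all genes, with a median of 533. The part of length in these calls was not tested.

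**Figure D5:**
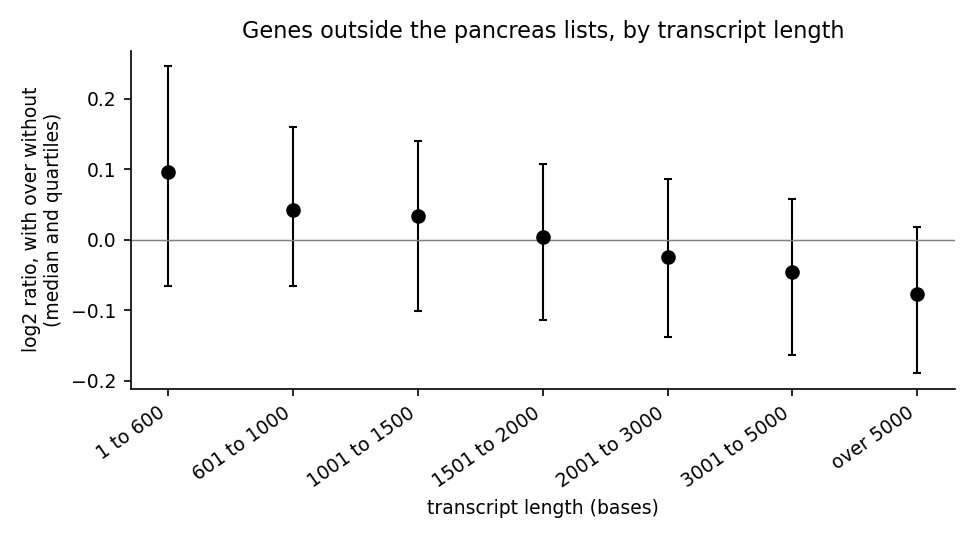
Median (points) and quartiles (bars) of the log2 ratio of livers with over livers without islet transcripts, for genes outside the pancreas lists in 7 classes of transcript length in bases. The median runs from 0.10 in the shortest class to -0.08 in the longest, and the quartiles of neighbouring classes overlap.

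Genes by which the liver answers insulin were not called between the classes. Of 16 genes of the insulin action list 13 had a negative log2 ratio, with a median of -0.17. Igfbp1, which insulin represses, had a log2 ratio of -0.72 ± 0.40 (adjusted p = 0.476, edgeR), and G6pc, the glucose 6-phosphatase gene, -0.39 ± 0.20 (0.427). The classes overlapped in both genes. Irs2, Pck1, Scd1, Srebf1 and Fasn had log2 ratios between -0.26 and -0.01 with adjusted p values of 0.713 to 0.993. Of 15 glucagon action genes 7 were positive and 8 negative, with a median of -0.01. No gene of any fixed list outside the pancreas was called by edgeR, while 1507 of the 11773 genes outside the rule had an unadjusted p below 0.05, 840 of them higher and 667 lower.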

How the data were processed

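The deposited files, which have no header, hold estimated counts per gene, as their values show, and the submitters' processing notes name kallisto 0.42.3 and GRCm38. Libraries were made from 400 ng of RNA with a kit that does not mark strand, per the labels' protocols, so overlapping genes cannot be told apart, and which library ran on which lane is not given in the sources used here. Estimated counts were rounded to whole numbers. Symbols matched 46005 of 46517 identifiers (98.9%), and the other 512 held 0.264% of counts.

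The 19 livers were fitted with edgeR 4.0.16 in R 4.3.3 (TMM scaling, filterByExpr by group, quasi-likelihood test without robust estimation; 4 groups of genotype and diet plus the class; 14 residual degrees of freedom), and muscles likewise. Genes were called at a Benjamini-Hochberg adjusted p below 0.05 over all tested. An SE is the log2 ratio divided by the square root of F. The fit was tested on simulated data. Normalised CPM are CPM of the TMM-scaled library. Named genes were Ins1, Ins2, the 4 genes of the rule, tested islet hormones and islet factors, the 12 called genes of lowest p in each direction, or the 3 of lowest p where fewer than 3 were called, up to 4 called members of a list, and 9 fixed liver genes. Some that met this rule are given by count only or are not reported here. The members and lists were chosen with earlier results of these data known. Pairs of livers were compared by chi-square per gene in thinned counts, over genes with 20 or more counts in the pair, a check added after seeing the data. Livers sharing a replicate number varied together weakly, if at all, with r above 0.1 in 3 of 27 such pairs and 6 of 108 others. The median r was 0.018 and -0.009, and numbers were not taken as pairs. Alternatives were DESeq2 1.42.0, limma-voom 3.58.1, other scalings, filters, classes and thresholds, a replicate block, and each library left out.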

Additional observations from a re-analysis of the deposited data

Results flagged for a closer look

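Of 44 sets of 4 or 5 libraries tested for a value far from the others, 1 stood out, where chance gives about 1 in 20: the share of counts on mitochondrially encoded genes in Ins2+/+ livers on diet A was 8.32% in replicate 5, which has no islet transcripts, above the rest of its group. The difference by islet transcripts in Cpe between liver and muscle passed edgeR's test at 4.82 on the log2 scale (adjusted p = 0.00309). The limit stated for Cpe above applies here too.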

How the results depend on the processing

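Against 39 calls, of which 16 outside the pancreas lists, other settings gave these counts, in the same order: 103 and 80 at an adjusted p below 0.1, 176 and 174 with DESeq2, 23 and 4 with limma-voom, 163 and 113 with no filter, 1 and 1 with 1 CPM in 10 livers, where none of the 23 pancreas genes was tested, 109 and 86 with a continuous predictor, 147 and 123 without livers Ins2+/- B 2 and B 3, 0 and 0 in Ins2+/- livers only, again with none of the 23 tested, and 68 and 63 with classes by serial number, added later. A threshold of 20 CPM gave 21 and 11, of which 11 and 1 were among the 39 and the 16. DESeq2 gave no adjusted p for 21 of the 23 pancreas genes. Adjusted outside the lists alone, 1 was called. With the replicate number as a block, 5 and 0 were called, with 255 in muscle (96 without) and 656 between tissues (65 without). Leaving out 1 liver gave 11 to 141 in all (11, 12, 15 and 25 without Ins2+/- B 1, Ins2+/- A 1, Ins2+/- A 2 and Ins2+/+ A 1; 84 and 141 without Ins2+/- B 2 and B 3) and 1 to 127 outside the lists. Leaving out 1 muscle gave 67 to 158. The causes were not tested. RLE and upper-quartile scaling, and TMM without pancreas genes, left both counts within 1.5 times.

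Leaving out 1 liver turned the difference in total count (-2444880 to 6377030), in genes detected (-48.7 to 81.7) and in mitochondrial share (-0.311 to 0.0670 percentage points). Of uncalled genes, the log2 ratio of Irs2 reached 0.11 in Ins2+/- livers only. Pck1 was 0.050 with limma-voom, 0.058 with the class alone, 0.027 with the block and 0.084 by serial number, and -0.17 to 0.11 leaving out 1 liver. Scd1 was 0.011 at 20 CPM and -0.60 to 0.083 leaving out 1 liver. Alb was 0.0061 with the class alone, 0.097 with the block, and -0.064 to 0.055 leaving out 1 liver. The depth of most livers limits what can be seen of rare transcripts such as those of islet transcription factors.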
